A study of Mus musculus with 6 samples.

Results

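Levels and arm use were followed for 10 mature miRNAs that come from 5 mouse hairpins, miR-28a, miR-151, miR-708, miR-191 and miR-425. The members were taken by name from the deposited miRNA table, and all 10 of 10 names were found among the 2009 names listed. The hairpins were selected on the levels of both arms in these libraries, as well measured on each, so their levels and their preferred arm are given as a description, with no test. For 4 of the 5 hairpins that label held. The 5p arm of miR-708 had only 2 to 5 reads per library and lay below the limit of 1 RPM (reads per 1000000 reads) used for tests, which left 9 of the 10 members tested among 409 miRNAs.

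The hearts came from male mice and were perfused on a Langendorff system, which feeds an isolated heart through the aorta. In 3 sham hearts the beat was not stopped. In 3 hearts of the ischemia and reperfusion (I/R) group, Tomas cardioplegia, a solution that arrests contraction, stopped the heart for 30 min and reperfusion followed for 1 h. All 6 hearts thus shared isolation and perfusion outside the body. The labels give no strain, age or genotype, and replicate numbers 1 to 3 in either group stand for separate biological samples. Whole heart RNA holds many cell types, so fewer cells of a type and less RNA per cell cannot be told apart.

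Between 7874103 and 9197869 reads fell on listed names per library, and the 10 members took 0.347% to 0.493% of them. Heart muscle markers summed to 357828 to 389856 RPM per library, nearly all of it miR-1a-3p, while the red blood cell markers miR-451a and miR-144-3p summed to 1.52 to 6.85 RPM and the brain marker miR-124-3p was listed at 0 in all 6 libraries. Smooth muscle markers summed to 35566 to 49773 RPM, the endothelial miR-126a-3p stood at 24426 to 31326 RPM, 3 leukocyte markers summed to 67.8 to 91.5 RPM, and the liver miRNA miR-122-5p stood at 3.05 to 4.32 RPM. The brain sum of 81.1 to 146 RPM was all miR-9-5p.

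A miRNA hairpin is cut into a short duplex, and an Argonaute protein keeps one strand as the guide while the other strand is mostly degraded. The guide finds its target mRNAs through its seed, the bases near its 5′ end, so the choice of arm decides which mRNAs a hairpin can repress. The hairpins of miR-28, miR-151 and miR-708 are relatives that arose from copies of the LINE-2 transposable element and now lie in introns of unrelated genes. miR-191 and miR-425 form a short cluster of their own. miR-191 is often used as a stable reference in miRNA measurements, and miR-425-5p is known to repress the human mRNA of atrial natriuretic peptide.

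Sequences are shown because they define which members can share targets and how close the related hairpins still are. RefSeq (GRCm38.p6) gave a mature sequence for 8 of the 10 members, printed 5′ to 3′ with the seed, bases 2 to 8, in capitals. The first pair holds the 5p arms of miR-28a and miR-708, which share 1 seed, and the next pair their 3p arms.
miR-28a-5p: aAGGAGCUcacagucuauugag
miR-708-5p: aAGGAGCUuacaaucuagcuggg
miR-28a-3p: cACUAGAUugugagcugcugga
miR-708-3p: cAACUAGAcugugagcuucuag
The 2 hairpins of the cluster gave arms with 4 separate seeds.
miR-191-5p: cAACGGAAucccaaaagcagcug
miR-191-3p: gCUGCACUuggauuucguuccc
miR-425-5p: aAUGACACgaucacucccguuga
miR-425-3p: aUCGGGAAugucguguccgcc

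The 5p arms of miR-28a and miR-708 were identical over 16 of 22 aligned positions, including the whole seed AGGAGCU. Their 3p arms matched at 17 of 21 positions when shifted by 1 base, and their seeds, ACUAGAU and AACUAGA, differ by that shift. The closest other pair among the 8 sequences, miR-708-5p and miR-191-5p, matched at 11 of 21 positions. The seeds of the miR-151 arms were not searched, since no sequence was found for either arm. Outside the members, 1 miRNA in the RefSeq table carried a seed of the 8 sequences. That was miR-489-3p, with the seed AUGACAC of miR-425-5p, and it was listed at 0 in all 6 libraries. At these depths 0 reads allow up to 0.326 to 0.381 RPM, for counting error only. Of the names miR-28b and miR-28c, the first had 1 read in 1 library and the other stood at 7.83 to 11.5 RPM.

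Each of the related hairpins lies in an intron of a protein-coding gene, on the strand of that gene (GRCm38, GENCODE M21). The miR-28a hairpin is at chromosome 16, 24827855 to 24827940, in Lpp, which encodes a protein of focal adhesions. The miR-151 hairpin is at chromosome 15, 73254815 to 73254882, on the minus strand in Ptk2, the gene of focal adhesion kinase, and an antisense transcript, 1700085D07Rik, spans the same place. The miR-708 hairpin is at chromosome 7, 96249424 to 96249532, in Tenm4, which encodes a transmembrane teneurin.

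The annotations differ on the cluster. The miR-191 hairpin is at chromosome 9, 108568319 to 108568392, and the miR-425 hairpin at 108568777 to 108568861, both on the plus strand with 384 bases between them. RefSeq places both inside the span of Dalrd3, 108567484 to 108572773. GENCODE M21 starts Dalrd3 at 108569886, after both hairpins, and places both hairpins in an exon of the lincRNA 4833445I07Rik. It also lists a miRNA gene, Gm24083, on the strand opposite to miR-191. Whether reads were assigned by strand is not given in the sources used here.

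The 10 members covered a wide range of levels, from miR-151-3p at 2731 to 4088 RPM down to miR-708-5p at 0.244 to 0.611 RPM. Levels are in RPM, with no division by the length of each miRNA. miR-151-3p ranked 27th of all names by mean level, miR-191-5p 61st, miR-28a-5p 112th and miR-28a-3p 159th. Then came miR-425-5p, miR-151-5p, miR-708-3p, miR-191-3p and miR-425-3p, between ranks 174 and 247, and miR-708-5p at rank 510. Ranges over the 6 libraries overlapped for 3 neighbours in this order, miR-425-5p with miR-151-5p, miR-708-3p with miR-191-3p, and miR-191-3p with miR-425-3p. The ranges of the other 6 neighbouring pairs did not overlap. Ligation and amplification can favour some sequences, and their part in differences between miRNAs was not tested.

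**Figure D1:**
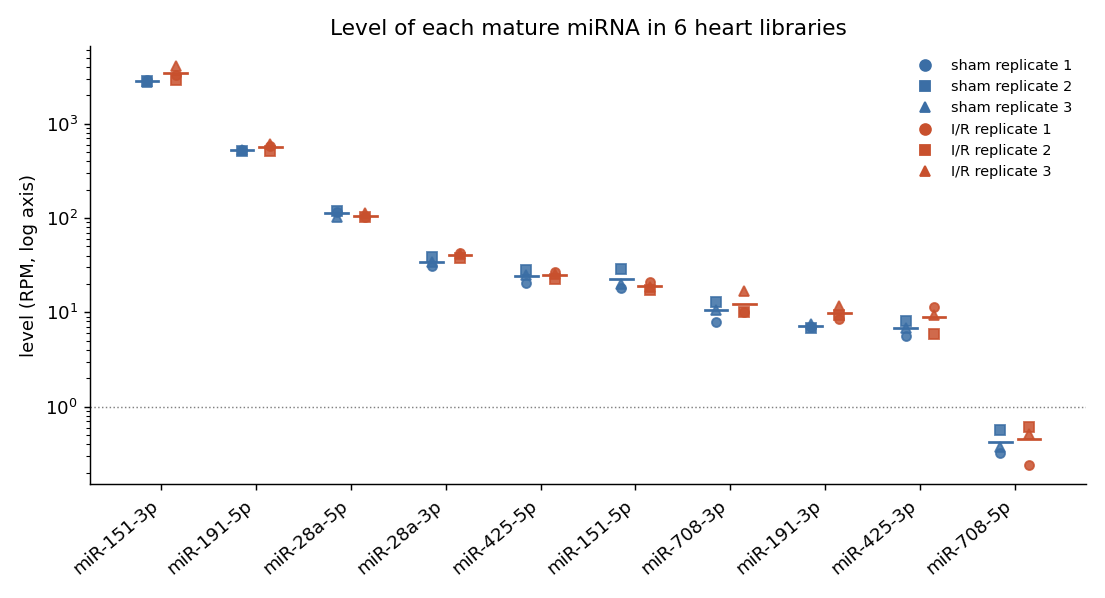
Level of each member in RPM on a log axis, for 3 sham hearts (blue) and 3 I/R hearts (orange), with a dash at each group mean and marker shape giving the replicate number. The dotted line is the limit of 1 RPM for testing, and only miR-708-5p, at 0.244 to 0.611 RPM, lies below it.

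Nearly all reads of miR-151 came from its 3p arm. mmu-miR-151-3p stood at 2880, 2837 and 2731 RPM in sham hearts 1 to 3 and at 3279, 2900 and 4088 RPM in I/R hearts 1 to 3. All I/R values lay above all sham values, with I/R replicate 2 only slightly so and I/R replicate 3 far above the rest. miR-151-5p stood at 18.0, 28.9 and 20.0 RPM in sham and at 21.1, 17.4 and 18.5 RPM in I/R hearts, with sham replicate 2 highest and the groups overlapping. The 3p arm was thus 98.0 to 220 times as abundant as the 5p arm. Among the 94 hairpins with both arms tested, 11 of the other 93 were more one-sided than miR-151. That set leaves out hairpins with an arm too scarce to be tested, such as miR-708. Counts of more one-sided hairpins, here and below, therefore cover only hairpins with both arms tested. miR-151-3p alone made up 78.8% to 82.9% of the reads of the 10 members.

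In miR-28a the preference was the other way and far milder. mmu-miR-28a-5p stood at 115, 119 and 103 RPM in sham hearts 1 to 3 and at 103, 103 and 113 RPM in I/R hearts, and the groups overlapped. miR-28a-3p stood at 30.6, 38.7 and 34.3 RPM in sham and at 42.7, 37.5 and 41.9 RPM in I/R hearts, where only sham replicate 2 reached the I/R range. The 5p arm took 70.7% to 79.1% of the hairpin's reads per library, 2.42 to 3.78 times its partner. Of the other 93 hairpins, 61 were more one-sided.

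miR-708 was the scarcest of the 5 hairpins and was read mostly from its 3p arm. miR-708-3p stood at 7.83, 13 and 10.7 RPM in sham and at 10.2, 10 and 16.9 RPM in I/R hearts, with I/R replicate 3 highest and the groups overlapping. miR-708-5p had 3, 5 and 3 reads in sham and 2, 5 and 4 reads in I/R libraries. Pooled over the 6 libraries the 5p arm held 22 of 595 reads, 3.70% (95% Clopper-Pearson interval 2.33% to 5.54%, counting error only). The closely related miR-28a and miR-708 therefore differed in the arm that held most of their reads in these hearts. Although miR-28a-5p and miR-708-5p share a seed, miR-28a-5p supplied 99.4% to 99.8% of the reads of these 2 arms. The sum of the 2 arms was 113 ± 8.13 RPM in the sham group against 107 ± 5.64 RPM after I/R (SD, n = 3 each).

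In the cluster one hairpin was read almost wholly from its 5p arm and the other from both arms. mmu-miR-191-5p stood at 519, 512 and 528 RPM in sham hearts 1 to 3 and at 573, 506 and 606 RPM in I/R hearts. The sham values lay close together, and I/R replicate 2 fell below all of them while replicates 1 and 3 lay above. miR-191-3p stood at 6.96, 6.89 and 7.53 RPM in sham and at 8.42, 9.42 and 11.6 RPM in I/R hearts, and every I/R value lay above every sham value. The 5p arm was 52.4 to 74.5 times as abundant as the 3p arm, and 20 of the other 93 hairpins were more one-sided.

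miR-425 was lower and divided more evenly between its arms. miR-425-5p stood at 20.3, 28.4 and 24.7 RPM in sham and at 26.7, 22.4 and 25.7 RPM in I/R hearts, inside the sham range throughout. miR-425-3p stood at 5.65, 8.14 and 6.79 RPM in sham and at 11.5, 5.87 and 9.40 RPM in I/R hearts, with I/R replicates 1 and 3 above the sham range and replicate 2 within it. The 5p arm took 70.0% to 79.2% of the hairpin's reads, and 59 of the other 93 hairpins were more one-sided. Although the hairpins lie 384 bases apart, miR-191-5p was 18.1 to 25.5 times as abundant as miR-425-5p. The log2 ratio of the 2 was 4.42 ± 0.25 in the sham group against 4.49 ± 0.07 after I/R (SD, n = 3 each), a difference of 0.07 with exact permutation p = 0.7 (two-sided, 0.1 being the smallest p that 3 against 3 hearts allow).

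The first base also differed among the preferred arms. miR-28a-5p and miR-425-5p begin with A, while miR-708-3p and miR-191-5p begin with C. Of 76 hairpins with both arms tested and a RefSeq sequence for the preferred arm, that arm began with U in 39 (51.3%), with A in 19 (25%), with C in 15 (19.7%) and with G in 3 (3.95%).

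The main comparison asked whether these levels differ after I/R, and none of the 9 tested members passed. limma with Benjamini-Hochberg adjustment over 409 miRNAs called 0, a percentage of 0. At an unadjusted p under 0.05 stood 29 higher (7.09%), 1 of them a member, and 1 lower (0.244%), no member. With the replicate number as a block limma called 4 (0.978%), none of them a member. In edgeR 0 were called and 26 had an unadjusted p under 0.05. In DESeq2 the calls numbered 2 (0.489%), none a member. The members' fold changes were positive for 7 of 9, and their median log2 fold change was 0.20. Over all tested miRNAs 70.2% were positive, with a median of 0.10, and TMM scaling shifted that median by -0.11 and the members' values with it.

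miR-191-3p had the smallest p of the members in limma without a block, and miR-151-3p with the replicate block, where their limma adjusted p was 0.36 and 0.294 in turn. The mean of miR-191-3p was 7.13 ± 0.351 RPM in the sham group against 9.80 ± 1.6 RPM after I/R (SD, n = 3 each), a log2 fold change of 0.40 (SE 0.16, 95% interval 0.03 to 0.77, limma adjusted p = 0.598). Its groups did not overlap, on the higher side, as for 11.2% of all tested miRNAs. With 10 RPM added in place of 1 RPM its fold change was 0.21. The abundant arm of the same hairpin, miR-191-5p, was at 520 ± 7.65 and 562 ± 50.6 RPM, a log2 fold change of 0.11 (SE 0.10, interval -0.12 to 0.34, limma adjusted p = 0.742), close to the median of all miRNAs. It was 0.18 without I/R replicate 2 and 0.05 without I/R replicate 3, and its sign turned under TMM scaling and quantile normalization.

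miR-151-3p was the other member whose groups did not overlap. Its mean was 2816 ± 76.5 RPM in the sham group against 3422 ± 607 RPM after I/R (SD, n = 3 each), a log2 fold change of 0.27 (SE 0.12, interval -0.01 to 0.54, limma adjusted p = 0.598). Without I/R replicate 3 the log2 fold change was 0.13, with TMM scaling 0.15 and with quantile normalization 0.00. The 4 heart muscle markers summed to 385458 to 389856 RPM in sham hearts and to 357828 to 383230 RPM after I/R, lowest in that same library. It also had the highest smooth muscle, endothelial, brain and liver sums, 49773, 31326, 146 and 4.32 RPM. Its red blood cell sum, 1.52 RPM, was the lowest, and its leukocyte sum, 78.5 RPM, lay within the range of the other libraries. The heart muscle sum was nearly all miR-1a-3p, and the smooth muscle sum nearly all miR-143-3p. Compared by group means, and not in that library alone, not every listed marker followed its sum. The mean of miR-499-5p was 5602 RPM in sham hearts against 5679 RPM after I/R, and that of miR-145a-5p 50.3 against 39.8 RPM. Single values of miR-499-5p overlapped, at 5217 to 5913 RPM in sham hearts and 5310 to 6248 RPM after I/R. The part of cell types in the result was not tested. The scarce arm miR-151-5p had a negative fold change, from 22.3 ± 5.8 to 19.0 ± 1.91 RPM (log2 fold change -0.20, interval -0.63 to 0.23, limma adjusted p = 0.742), and its fold change was -0.33 without sham replicate 1 and 0.00 without sham replicate 2.

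The arms of miR-28a also had fold changes of opposite sign, and neither passed. miR-28a-5p was at 112 ± 8.07 RPM in the sham group against 106 ± 5.59 RPM after I/R (n = 3 each, log2 fold change -0.08, interval -0.34 to 0.18, limma adjusted p = 0.806), while miR-28a-3p was at 34.5 ± 4.05 and 40.7 ± 2.78 RPM (0.24, interval -0.08 to 0.55, limma adjusted p = 0.642). The fold change of miR-28a-5p was -0.04 without sham replicate 2, -0.14 without sham replicate 3 and -0.15 to -0.27 under the other scalings and count tests. That of miR-28a-3p was 0.15 without sham replicate 1 and 0.12 with TMM scaling. Of the related hairpins' 3p arms, miR-28a-3p and miR-151-3p had a log2 ratio to each other of -6.36 ± 0.18 in the sham group against -6.38 ± 0.20 after I/R (n = 3 each, exact permutation p = 0.8). Both exact tests of ratios had an adjusted p of 0.8.

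The 3 remaining tested members did not pass either, and their values depended on single libraries or the scaling. miR-425-5p had a log2 fold change of 0.03 (interval -0.33 to 0.39) whose sign turned under median-ratio and TMM scaling, quantile normalization and totals without the 10 most abundant miRNAs. miR-425-3p, at 6.86 ± 1.24 RPM in the sham group against 8.91 ± 2.83 RPM after I/R (n = 3 each), had one of 0.30 (interval -0.24 to 0.85), which was 0.19 without sham replicate 1, 0.12 without I/R replicate 1 and 0.55 without I/R replicate 2. miR-708-3p, at 10.5 ± 2.59 and 12.4 ± 3.90 RPM, had one of 0.20 (interval -0.34 to 0.75), which was 0.02 without sham replicate 1, -0.02 without I/R replicate 3, and 0.31 to 0.36 without sham replicate 2, I/R replicate 1 or I/R replicate 2. limma's adjusted p for the 3 was 0.678 to 0.954.

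**Figure D2:**
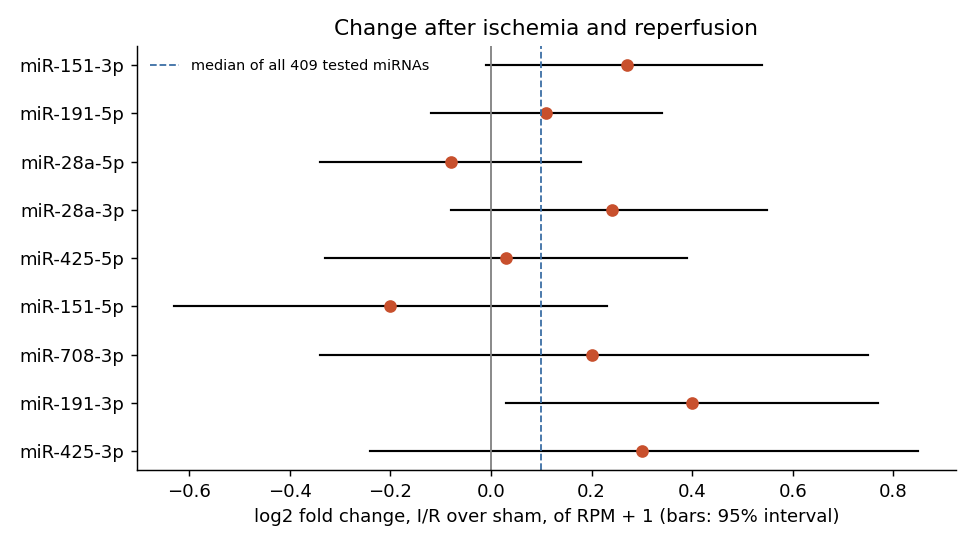
Log2 fold change of RPM + 1, I/R over sham, for the 9 tested members in order of their level, with 95% intervals from limma. The dashed line is the median of all 409 tested miRNAs, 0.10, and the interval of every member but miR-191-3p (0.03 to 0.77) includes 0.

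Arm balance, taken as log2 of 5p over 3p, had a lower mean after I/R, toward the 3p arm, in all 4 tested hairpins, and none passed. limma called 0 of 94 hairpins (a percentage of 0). Of the 94, 6 (6.38%) had an unadjusted p under 0.05 with no member among these, and 58.5% of the 94 differed toward 3p. The 5p share of miR-28a was 79.1%, 75.4% and 75.1% in sham hearts 1 to 3 against 70.7%, 73.2% and 72.9% after I/R, so the groups did not overlap. The log2 ratio went from 1.68 ± 0.18 to 1.36 ± 0.09 (SD, n = 3 each), a difference of -0.32 (SE 0.15, interval -0.67 to 0.04, limma adjusted p = 0.605).

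The 3p share of miR-191 was 1.32%, 1.33% and 1.41% in sham hearts against 1.45%, 1.83% and 1.87% after I/R, again without overlap, though I/R replicate 1 lay next to the sham values. The log2 ratio differed by -0.29 (SE 0.14, interval -0.63 to 0.05, limma adjusted p = 0.641), and by -0.10 with 10 RPM added to each arm. Groups that did not overlap, toward 3p, were found for 6.38% of the 94 hairpins.

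The groups overlapped for both remaining hairpins. In miR-151 the 5p share was 0.62%, 1.01% and 0.73% in sham hearts against 0.64%, 0.60% and 0.45% after I/R, and the log2 ratio differed by -0.46 (interval -0.98 to 0.05, limma adjusted p = 0.605) but by -0.28 without sham replicate 2 and -0.31 without I/R replicate 3. In miR-425 the sham shares of 78.2%, 77.7% and 78.4% lay close together, while the I/R shares of 70.0%, 79.2% and 73.2% spread on both sides. Its log2 ratio differed by -0.27 (interval -0.71 to 0.17, limma adjusted p = 0.701), by -0.13 without I/R replicate 1 and by -0.44 without I/R replicate 2. For miR-708 the pooled 5p share was 3.86% in sham hearts against 3.55% after I/R, from 11 reads of the 5p arm in each group, with Clopper-Pearson intervals of 1.94% to 6.80% and 1.78% to 6.26%. Tested without the filter on low values, the log2 ratio of miR-708, with 1 RPM added to each arm, differed by -0.18 (interval -0.75 to 0.40, limma adjusted p = 0.949). The added 1 RPM exceeds the 5p arm's level in every library.

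**Figure D3:**
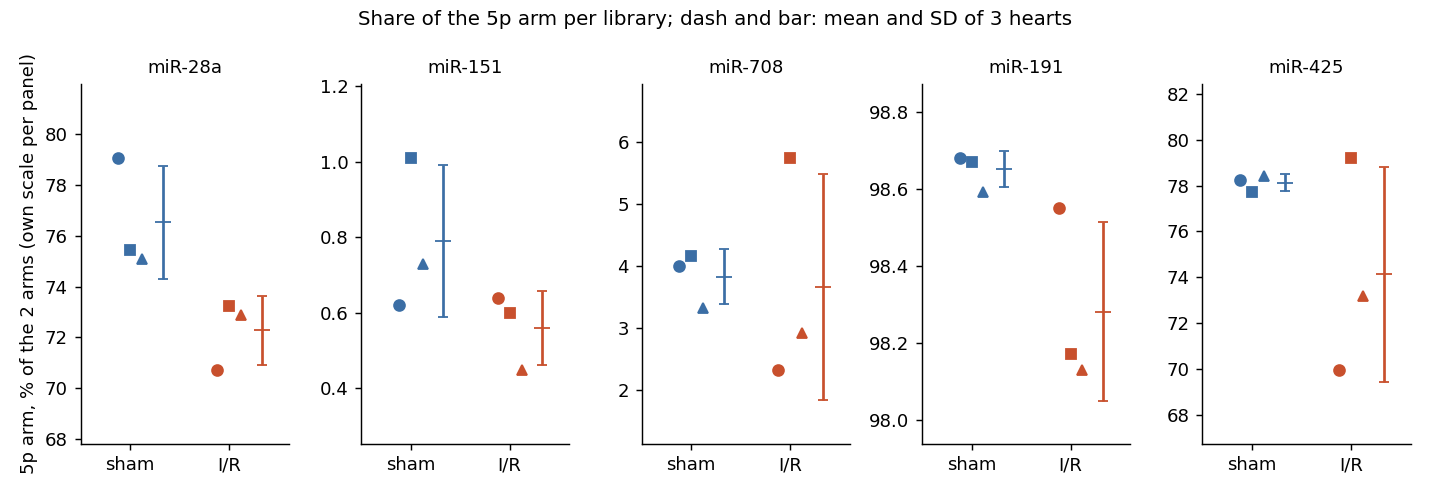
Share of the 5p arm in the reads of each hairpin, in percent, per library, with an own scale in each panel that does not start at 0. Circles, squares and triangles are replicates 1, 2 and 3 of sham (blue) and I/R (orange), the bar beside them is the mean and SD of 3 hearts, and only miR-28a and miR-191 have groups that do not overlap.

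**Figure D4:**
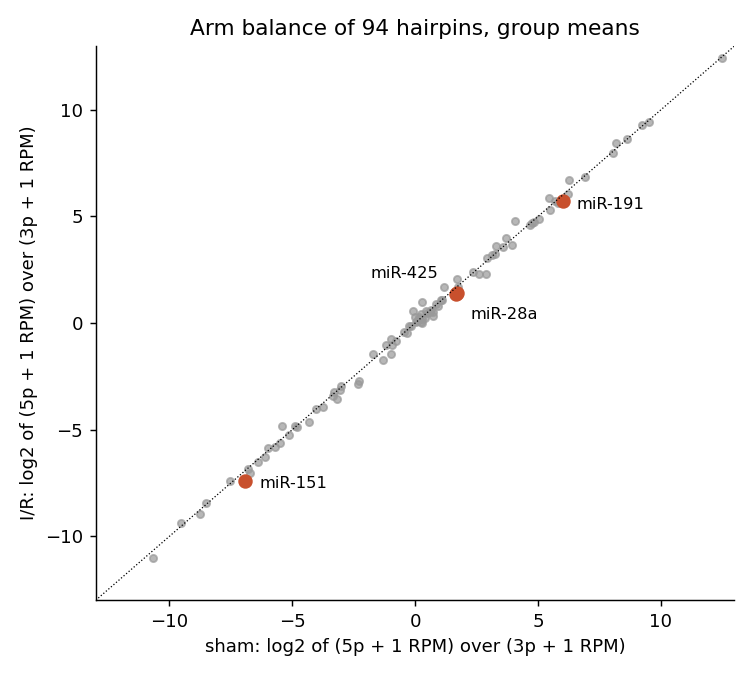
Log2 of 5p over 3p, with 1 RPM added to each, in sham (x axis) and I/R hearts (y axis), group means of 3 hearts, for 94 hairpins with both arms tested. The 4 tested hairpins of the group (orange) lie just below the dotted line of equal ratios, by 0.27 to 0.46, with miR-28a and miR-425 nearly on top of each other near the middle and miR-151 and miR-191 on opposite sides.

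The miRNAs whose profile over the 6 libraries was most like each preferred arm were found by the root mean square (RMS) difference of log2(RPM + 1) values centred on their own mean. For miR-151-3p this was miR-99b-5p (RMS difference 0.065, where the median over tested miRNAs was 0.247), at 3516, 3468 and 3518 RPM in sham hearts against 3859, 3654 and 5539 RPM after I/R. It had the same high I/R replicate 3. For miR-28a-5p it was miR-378a-5p (0.041), for miR-191-5p miR-185-5p (0.047), for miR-425-5p miR-28c, by its name a relative of miR-28a (0.067), and for miR-708-3p miR-330-5p (0.086). These are descriptions over 6 libraries scaled to the same total.

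Other miRNAs in introns of protein-coding genes were taken as a list for comparison. Of 34 listed, 29 were tested, 14 with positive and 15 with negative fold changes, and the median was 0.00 against 0.10 over all miRNAs. None passed in limma, 1 had an unadjusted p under 0.05, and the groups did not overlap for 1 on the higher and 1 on the lower side. Over all 409 tested miRNAs, 30 had an unadjusted limma p under 0.05. Groups did not overlap for 46 of the 409 on the higher and 16 on the lower side. The smallest p belonged to miR-25-3p, of the Mcm7 gene, at 343 ± 9.51 RPM in the sham group against 404 ± 17.4 RPM after I/R (n = 3 each, log2 fold change 0.23, limma adjusted p = 0.598). miR-140-3p, from the ubiquitin ligase gene Wwp2, was at 764 ± 200 and 1015 ± 207 RPM (0.42, limma adjusted p = 0.628) and miR-103-3p, from the pantothenate kinase genes, at 382 ± 37.5 and 436 ± 16.6 RPM (0.19, limma adjusted p = 0.628).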

How the data were processed

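The authors deposited 1 signal value per mature miRNA name and library in a table whose name calls the values FPKM. Per the submitters' processing notes, the tools included fastp 0.23.0 and bcl2fastq 2.19.1.403, with genome build mm10. Not given in the sources used here are the strand setting, the aligner, the handling of reads with several matches and which miRNA annotation was counted. The labels' library protocol names poly(A) mRNA kits. Each deposited column summed to the same total, and 100% of values were whole multiples of the column's smallest value above 0 (tolerance 0.01 reads), as RPM divided by a constant 23.0 nt would be. Whole reads recovered in this way gave RPM. No source describes collapsing of reads to molecules, so counting intervals cover counting error only.

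Tests used limma 3.58.1 (R 4.3.3) on log2(RPM + 1) with the variance trended on the mean, over 409 names that averaged 1 RPM or more and were above 0 in at least 3 libraries. The p-values were two-sided, adjusted after Benjamini and Hochberg, and called below 0.05. The added 1 RPM makes fold changes of scarce miRNAs too small. Arm balance was tested likewise on log2 ratios of 94 hairpins. Scripts were tested on simulated data. Named miRNAs were the 10 members, the most alike miRNA for each preferred arm, other names with a member's seed, 3 of an intron list by smallest p, and tissue markers. miR-28b was added after its value was seen. Members and lists were chosen with earlier results of these data known. Alternatives were pseudocounts, filters, 4 scalings, limma without trend, edgeR 4.0.16, DESeq2 1.42.0, a replicate block and left-out libraries.

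Replicate numbers 1 to 3 occur in sham and I/R alike. Deviations from the group means had correlations of 0.14, 0.28 and 0.16 between same-numbered libraries (each over 0.1). Libraries with unlike numbers gave -0.19 to 0.07. Centring each group on its own mean pushes the unlike-numbered values down when the same-numbered ones are positive. The contrast therefore cannot show by itself that the numbers pair the libraries. The labels do not say what a number marks. Pairing by number was assumed, from these data alone, only in the alternatives with a replicate block. The main limma tests and the exact tests of ratios treated the 6 libraries as unpaired.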

Additional observations from a re-analysis of the deposited data

How the results depend on the processing

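The replicate block changed no call for a member or a hairpin. The count of miRNAs called by limma went from 0 to 4 with the replicate block, and to 1 without a filter on low values. DESeq2 called 2, edgeR with TMM and the replicate block 4, and median-ratio scaling with the block 2, the last 2 settings being chosen after seeing the data. With 1 library left out the count was 0 to 1, the call being made without sham replicate 2. None of these calls was a member. The count of hairpins with changed arm balance was 0 under all 11 alternatives run. Scaling by TMM moved the median of all miRNAs by -0.11 on the log2 scale. The split of miRNAs at an unadjusted p under 0.05 went from 29 higher and 1 lower to 11 and 13 under TMM, 10 and 6 under quantile normalization, 15 and 11 under median-ratio scaling, 11 and 15 under edgeR, and 16 and 6 when totals left out the 10 most abundant miRNAs.

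Of the 9 tested members, miR-28a-5p, miR-28a-3p, miR-191-3p and miR-425-3p kept their direction under every alternative run, as did the arm balance of the 4 hairpins. miR-151-3p came to 0.00 with quantile normalization and miR-151-5p to 0.00 without sham replicate 2. miR-191-5p was at -0.01 with TMM scaling, quantile normalization and edgeR with and without the block. miR-425-5p was at -0.08 with TMM and in edgeR with and without the block, -0.07 in DESeq2, -0.04 with quantile normalization, -0.06 with median-ratio scaling with and without the block, -0.03 when totals left out the 10 most abundant miRNAs, and -0.09 to 0.14 with 1 library left out (-0.09 without sham replicate 1, -0.02 without I/R replicate 1). miR-708-3p was at -0.02 to 0.36 with 1 library left out. The log2 ratio of miR-191-5p to miR-425-5p differed by -0.05 to 0.20 and that of miR-28a-3p to miR-151-3p by -0.12 to 0.09 with 1 library left out. The cause of these turns was not tested. miR-708-5p, with 2 to 5 reads per library, is limited by depth.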
